A study of Mus musculus with 4 samples.

Results

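Chromatin accessibility at 10 genes of the inflammasome pathway was examined by ATAC-seq in large peritoneal macrophages (LPMs), the F4/80 high MHCII low resident macrophages of the peritoneal cavity. The genes were the bacterial sensors Naip1, Naip2, Naip5 and Naip6, their partner Nlrc4, the sensors Nlrp3 and Aim2, the inflammatory caspases Casp1 and Casp4, and the cytokine gene Il1b. Peaks of the 4 libraries that overlapped by at least 1 bp were merged into regions. A region was assigned to a gene when the transcription start site (TSS) nearest to its midpoint was that of the gene, or when it overlapped the gene body. This gave 50 of 70744 merged regions, 18 at the Naip genes and 32 at the other members. One of the 50, inside Naip5 with the TSS of Naip2 nearest to it, belonged to both genes.

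The libraries came from 9-week-old C57BL/6 mice of 2 genotypes. Both carried floxed alleles of Rxra and Rxrb, which encode retinoid X receptors, nuclear receptors that pair with other nuclear receptors such as the retinoic acid receptors. In LysMCre+ Rxrab fl/fl mice the LysM promoter, active in myeloid cells, drove the Cre recombinase that deletes the floxed segments, and Rxrab fl/fl littermates without Cre were the controls. They are called RXR-deficient and control LPMs here, after the study's usage. Each library held 40000 sorted LPMs, with 2 libraries per genotype, numbered 1 and 3 for the controls and 1 and 2 for the RXR-deficient LPMs. The labels do not say that each library came from a separate animal, so the p values below measure the spread between these samples. The study also states that ATAC-seq samples that did not cluster with their group had been excluded.

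Inflammasomes are cytosolic complexes that activate caspase-1, which processes the precursor of IL-1β and cleaves gasdermin D to open pores in the membrane. NAIP proteins bind bacterial components directly: NAIP5 and NAIP6 recognize flagellin, NAIP2 the inner rod and NAIP1 the needle of type III secretion systems, and a NAIP bound to its ligand recruits NLRC4. NLRP3 responds to disturbance of the cell by toxins, crystals and ion loss, AIM2 binds cytosolic DNA, and caspase-11, the product of mouse Casp4, binds bacterial lipopolysaccharide. The mouse Naip genes lie side by side as an array of close paralogs, and Naip1 is the one that the study names as an inhibitor of apoptosis. The study reported lower Naip1 RNA, by RNA-seq in LPMs with Rxra alone deleted and by qPCR in LPMs of LysMCre+ Rxrab fl/fl mice. Its ATAC-seq, on these samples, also listed Naip1 among the loci less accessible in RXR-deficient LPMs. The Naip1 values here are therefore not independent evidence of a direction.

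The libraries differed in sensitivity. The lists held 38048 and 16097 peaks in control replicates 1 and 3, and 65421 and 55581 in RXR-deficient replicates 1 and 2. In the 15199 regions called in every library, the median pileup, which is the number of tags stacked at a summit, was 97 and 20 in control LPMs and 99 and 65 in RXR-deficient LPMs. Control replicate 3 thus had the lowest signal over open regions. The promoters of LPM marker genes were called at similar rates, 8, 7, 8 and 8 of 10 in control replicates 1 and 3 and RXR-deficient replicates 1 and 2, with that of Gata6, the defining LPM transcription factor, called in every library. Promoters of 10 markers of small peritoneal macrophages and monocytes were called at 3 and 1 in control LPMs and at 8 and 7 in RXR-deficient LPMs, with 28 and 9 against 58 and 54 regions called over the whole list. Such sums were also higher in RXR-deficient LPMs for the LPM markers (63 and 30 against 74 and 76), for B cells (3 and 0 against 13 and 10) and for T and NK cells (10 and 2 against 19 and 13). Over 8 markers each, 0 to 2 promoters were called per library for B, T and NK, and mast cells and 0 to 3 for neutrophils, and 0 for eosinophils in every library. The part of these differences in the results below was not tested. Over Rxra, one of the targeted genes, 14 and 6 regions were called in control LPMs and 25 and 22 in RXR-deficient LPMs, which says nothing of the deletion itself.

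Of the 50 regions at the inflammasome genes, 33 and 19 were called in control replicates 1 and 3, and 42 and 42 in RXR-deficient replicates 1 and 2. These were 66 and 38% against 84 and 84%, while the shares over all merged regions were 52 and 21.9% against 90.7 and 77.2%. Control replicate 3 had the fewest calls at the members and over all regions. By position, 22 of the 50 regions were intronic, 16 intergenic, 11 in promoter-TSS (a midpoint between 1 kb before and 200 bp past a TSS) and 1 in a 3′ UTR. Regions called in 1, 2, 3 and 4 libraries numbered 13, 7, 11 and 19. Aim2 had 11 regions, Naip1 and Naip2 had 8 each, Nlrp3 had 7, Il1b had 6, Nlrc4 had 4, Casp4 had 3, Naip5 had 2 and Naip6 and Casp1 had 1 each.

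**Figure D1:**
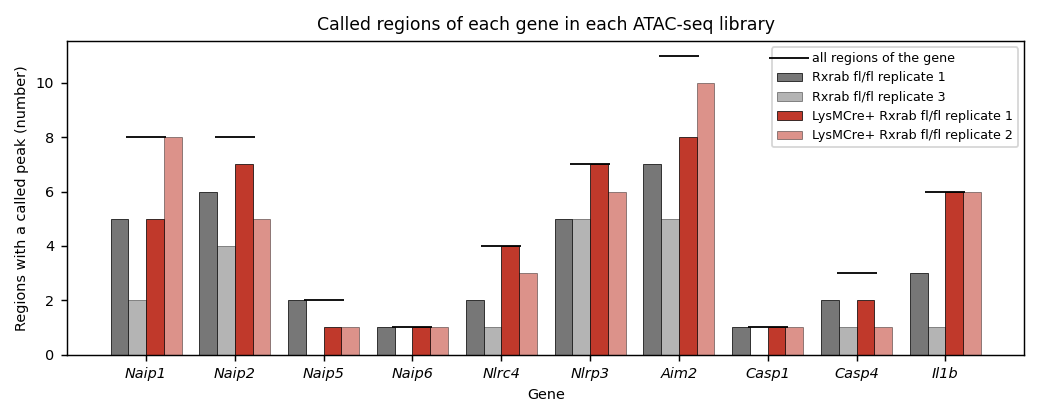
Number of regions with a called peak (y axis) for each gene (x axis) in each of the 4 libraries (bars, control, Rxrab fl/fl, in grey and RXR-deficient, LysMCre+ Rxrab fl/fl, in red); the black line marks all regions of the gene. At Il1b the control libraries have 3 and 1 called regions and the RXR-deficient libraries 6 and 6, while at Naip5, Naip6 and Casp1 only control replicate 3 lacks a call at the promoter.

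In control replicate 3, 31 of the 50 regions had no call. Scaled by the median pileup of each library, the level of the other libraries corresponds to a pileup in replicate 3 below 10, the 5th percentile of its called peaks, at 29 of these 31 regions. The other 2 were the promoter regions of Naip5 and Naip6, with expected pileups of 11.1 and 12.4. The level expected in this way was below the library's own 5th percentile at 3 of the 17 regions not called in control replicate 1, 0 of 8 in RXR-deficient replicate 1 and 3 of 8 in RXR-deficient replicate 2. These levels come only from the libraries with a call, at some regions a single one. Each region below is therefore given with its value in every library.

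The Naip array covers 309 kb of chromosome 13 (mm10, chr13:100144063-100452864), with all 4 genes on the minus strand in the order Naip2, Naip5, Naip6 and Naip1 along the coordinates. Because the genes are paralogs and the authors removed reads of low mapping quality, the share of 50-base windows that occur once in the genome was computed for each gene, 50 bases being the length of a read end. It was 84.2% over Naip1, 87.7% over Naip2, 56.7% over Naip5 and 64.4% over Naip6. The other members lay between 93.3% (Nlrc4) and 99.7% (Casp1). Over the regions themselves, 9 of 18 at the Naip genes had fewer than 90% single-occurrence windows, against 0 of 32 at the other members and 2.43% of all merged regions.

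The 18 regions were spread unevenly over the array. Naip6 had no region inside its 35.5-kb gene body, and Naip5 had 2 in its 35.6 kb, one of them the promoter. No region was called in any library over the 69.8 kb between the promoter regions of Naip5 and Naip6, nor over the 73.3 kb between the Naip6 promoter region and the next region towards Naip1. The first of these stretches includes the whole body of Naip6. The part of the removal of reads in these gaps was not tested.

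**Figure D2:**
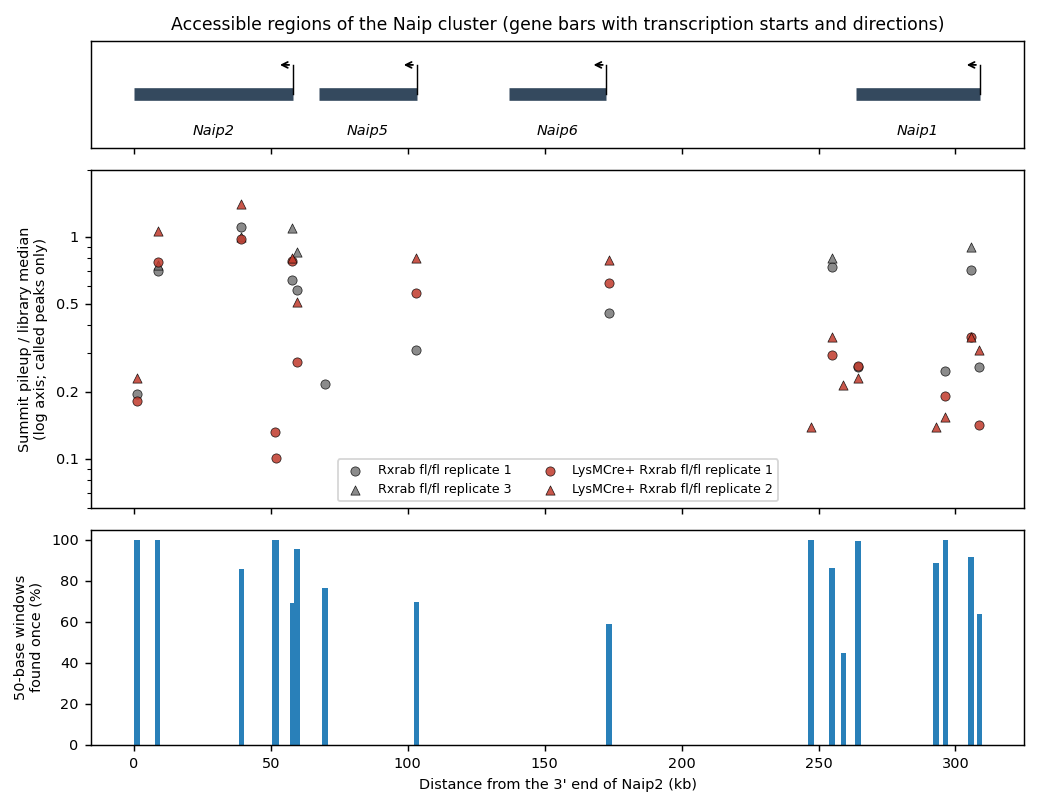
Naip array drawn by distance from the 3′ end of Naip2 in kb (x axis), with the 4 genes and their starts (top), the summit pileup of each region divided by the median pileup of its library on a log axis (middle, called peaks only, one symbol per library), and the share of 50-base windows of each region that occur once in the genome (bottom). At the 2 Naip1 regions called in every library both control symbols lie above both RXR-deficient symbols, and at the promoter regions of Naip5 and Naip6 no peak was called in control replicate 3.

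The promoter-TSS regions of Naip5 and Naip6 were near copies of each other. The Naip5 region (chr13:100246961-100247497) spans the RefSeq start of the gene. The Naip6 region (chr13:100317320-100317861) lies with its midpoint 975 bp upstream of the RefSeq start of Naip6 and holds the start of a GENCODE Naip6 transcript, 1058 bp upstream of the RefSeq one and 19 bp from the summit. Over 536 aligned positions the 2 regions shared 523 bases (97.6% identity). The Naip2 region was 86.7% identical to that of Naip5 over 534 positions, and the Naip1 region 73.0% over 422. The base that aligned with the first transcribed base of Naip5 was 1084 bp upstream of the RefSeq start in Naip6, 7 bp downstream of it in Naip2 and 23 bp upstream of it in Naip1.

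The stretch of the Naip5 region before its start is shown with its counterparts in Naip6 and Naip2, since read ends from the copies can be told apart only at the bases that differ. Sequences are those of GRCm38.p6, whose coordinates are those of mm10, on the minus strand, and capitals mark bases that differ from Naip5 or have no counterpart in it. They cover chr13:100247337-100247497 for Naip5, chr13:100317701-100317860 for Naip6 and chr13:100202116-100202314 for Naip2.
Naip5: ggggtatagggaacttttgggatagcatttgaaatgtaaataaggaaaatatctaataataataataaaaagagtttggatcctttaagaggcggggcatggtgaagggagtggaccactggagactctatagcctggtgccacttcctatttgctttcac
Naip6: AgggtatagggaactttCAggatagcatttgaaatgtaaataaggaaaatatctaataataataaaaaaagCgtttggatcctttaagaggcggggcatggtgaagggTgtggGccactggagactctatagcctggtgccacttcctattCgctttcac
Naip2: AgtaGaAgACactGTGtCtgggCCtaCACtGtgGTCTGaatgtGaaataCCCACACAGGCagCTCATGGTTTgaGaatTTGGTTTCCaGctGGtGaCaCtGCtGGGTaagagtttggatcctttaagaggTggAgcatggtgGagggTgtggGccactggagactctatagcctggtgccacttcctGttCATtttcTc
Of the aligned bases, 7 differed between Naip5 and Naip6 and 34 between Naip5 and Naip2. Over the whole promoter-TSS regions, 69.5, 58.8, 69.0 and 63.7% of the 50-base windows of Naip5, Naip6, Naip2 and Naip1 occurred once.

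Accessibility at these promoters is given as the fold enrichment of the peak summit over the local background, with the pileup beside it. The Naip5 promoter region had a fold enrichment of 10.4 in control replicate 1, no call in replicate 3, and 17.7 and 16 in RXR-deficient LPMs, with pileups of 30, 55 and 52. The Naip6 promoter region had 14.7, no call, and 19 and 16.9, with pileups of 44, 61 and 51. In both, the RXR-deficient libraries were above the one control library with a call. The Naip2 promoter region was called in every library, with a fold enrichment of 10.0 and 8.52 in control LPMs and 15.6 and 11.1 in RXR-deficient LPMs, and pileups of 62 and 22 against 77 and 52. The Naip1 promoter region was the weakest of the 4, with 4.32, no call, and 4.52 and 5.36, and pileups of 25, 14 and 20. After scaling to the library medians, the genotypes overlapped at the Naip2 promoter (log2 change 0.14, SE 0.25, limma adjusted p = 0.760).

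**Figure D3:**
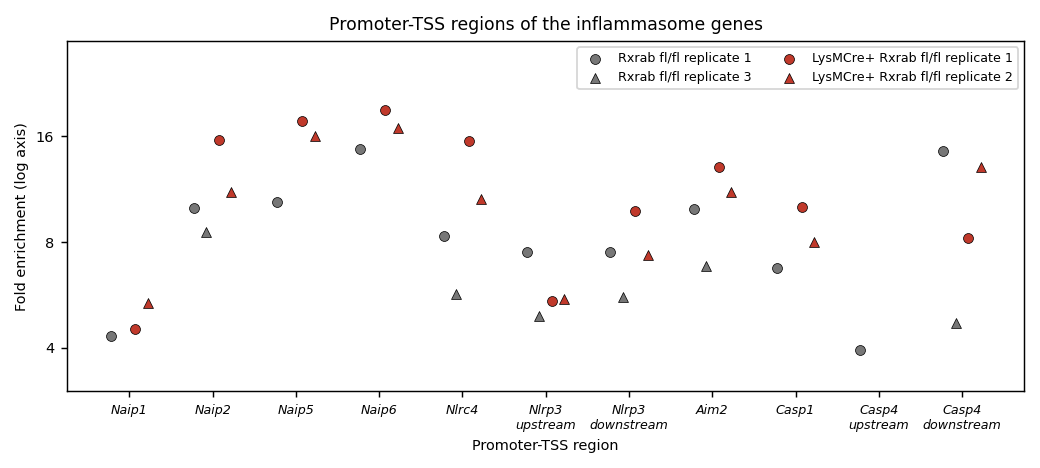
Fold enrichment (y axis, log scale) of each promoter-TSS region of the inflammasome genes (x axis) in each library (one symbol per library, control, Rxrab fl/fl, in grey and RXR-deficient, LysMCre+ Rxrab fl/fl, in red; a missing symbol is a library without a call). Naip6 and Naip5 are among the highest promoters wherever they were called, Naip1 is near the lowest, and Il1b has no promoter-TSS region.

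Changes between genotypes were tested with limma on the log2 fold enrichment, centred on the median of each library, in the 15199 regions called in every library, with an adjusted p under 0.05 and a log2 change past 1 as the threshold. Changes are RXR-deficient minus control. Of the 19 member regions tested, 0 were higher and 0 lower, beside 0.0395% higher and 0.0461% lower over all tested regions. At an unadjusted p under 0.05 the count was 7 of 19, against 22% of all regions. The median change of the member regions was 0.18 against −0.09 over all tested regions. Without centring, the median over all regions moved to 0.28. On the summit pileup, 0 of the 19 member regions were higher and 2 were lower, beside 2.25% higher and 4.54% lower over all regions, and the median change was 0.00 against −0.10. At an unadjusted p under 0.05, 4 of 19 moved on the pileup, against 32.5% of all regions. Both regions that fell belonged to Naip1.

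The first Naip1 region that fell on the pileup lay 8.78 kb past the 3′ end of the gene (chr13:100398620-100399354), with 86.4% single-occurrence windows. Its pileup was 71 and 16 in control LPMs and 29 and 23 in RXR-deficient LPMs, which is 0.73 and 0.80 against 0.29 and 0.35 of the median pileup of the library. Both control libraries were above both RXR-deficient libraries after this scaling. The log2 change in pileup was −1.22 (SE 0.22, limma adjusted p = 0.0219). The fold enrichment, 10.9 and 7.08 against 8.98 and 6.09, changed by −0.61 after centring (SE 0.22, limma adjusted p = 0.138). The local background of the peak was 5.62 and 1.4 tags in control LPMs and 2.34 and 2.94 in RXR-deficient LPMs.

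The second Naip1 region that fell on the pileup lay in an intron, 3.13 kb downstream of the TSS (chr13:100449488-100449988), with 91.4% single-occurrence windows. Its pileup was 69 and 18 in control LPMs and 35 and 23 in RXR-deficient LPMs, which is 0.71 and 0.90 against 0.35 and 0.35 of the library median. The genotypes did not overlap on this scale either. The log2 change in pileup was −1.15 (SE 0.23, limma adjusted p = 0.0255), and that in fold enrichment −0.50 (SE 0.23, limma adjusted p = 0.217), or −0.27 without RXR-deficient replicate 2. Both calls on the pileup were lost when either RXR-deficient library was left out, with adjusted p of 0.0854 and 0.0863 from limma without replicate 1 and of 0.110 and 0.127 from limma without replicate 2, while the changes stayed between −1.08 and −1.37. A lower pileup in such a bulk library cannot tell fewer cells with open chromatin from less opening per cell. The direction was the same under every setting tried, and the smallest changes were −0.25 and −0.13 in fold enrichment without centring.

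The 300 bases around the summit of both regions are shown because they are the regions that fell on the pileup with all 4 libraries, on the strand of Naip1, with the motif match, on either strand, in capitals.
Naip1 past the 3′ end, chr13:100399032-100399331: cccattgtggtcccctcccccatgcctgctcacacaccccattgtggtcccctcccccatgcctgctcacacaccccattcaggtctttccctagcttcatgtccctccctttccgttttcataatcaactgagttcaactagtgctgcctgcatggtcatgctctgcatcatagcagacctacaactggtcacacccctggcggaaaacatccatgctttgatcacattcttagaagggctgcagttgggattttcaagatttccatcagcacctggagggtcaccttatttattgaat
Naip1 intron, chr13:100449558-100449857: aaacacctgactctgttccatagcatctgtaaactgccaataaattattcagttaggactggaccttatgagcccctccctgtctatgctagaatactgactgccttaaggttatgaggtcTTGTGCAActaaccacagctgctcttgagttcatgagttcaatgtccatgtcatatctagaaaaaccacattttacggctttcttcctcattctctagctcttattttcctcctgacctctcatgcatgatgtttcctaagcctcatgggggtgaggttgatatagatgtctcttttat
The intronic window held a C/EBP match (TTGCNNAA), and the window past the 3′ end held none of the 10 motifs searched.

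The other 6 Naip1 regions were called in 3 libraries or in 1. The 3′ UTR region (chr13:100408301-100408670), where 99.7% of windows occurred once, had the highest mean fold enrichment of the gene over the libraries with a call. It had 8.02 in control replicate 1, no call in replicate 3, and 11.6 and 6.61 in RXR-deficient LPMs. The intronic region called in every library had 11.2 and 6.64 in control LPMs and 10.3 and 5.97 in RXR-deficient LPMs. The rank of the 3′ UTR region leaves out control replicate 3, the library with the lowest signal. When regions called in 3 libraries were also fitted, which leaves the controls with replicate 1 alone and assumes that it varies like the other libraries, this region changed by 0.23 in log2 fold enrichment (SE 0.30, limma adjusted p = 0.631). The Naip1 promoter changed by 0.29 in the same fit (SE 0.31, limma adjusted p = 0.547). The 3 regions that were not called in control LPMs at all were seen in RXR-deficient replicate 2 alone, with pileups of 9, 14 and 9.

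At Naip2 the strongest region was intronic, 18.8 kb downstream of the TSS (chr13:100183080-100183564), with a fold enrichment of 24.2 and 10.1 in control LPMs and 25.3 and 21.8 in RXR-deficient LPMs, the highest at any member. It changed by 0.22 (SE 0.21, limma adjusted p = 0.568). A region 1.46 kb upstream of the Naip2 TSS (chr13:100203355-100203816) was lower in both RXR-deficient libraries after scaling, with pileups of 56 and 17 against 27 and 33. Its change of −0.63 in fold enrichment (SE 0.25, limma adjusted p = 0.173) and of −0.89 in pileup (SE 0.33, limma adjusted p = 0.0981) did not pass the threshold, although the pileup change did without control replicate 1 (−1.17, limma adjusted p = 0.00475). The 4 tested Naip2 regions ranged from −0.63 to 0.50. The value of 0.50 was that of an intronic region 49.3 kb into Naip2, with the TSS of Smn1 nearest to it. No region of Naip5 or Naip6 was called in every library.

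Naip5 and Naip6 entered a test only when regions called in 3 libraries were fitted. The Naip5 promoter then changed by 0.79 in log2 fold enrichment (SE 0.28, limma adjusted p = 0.0774) and by 1.08 in pileup (SE 0.37, limma adjusted p = 0.0442), which passed the threshold. The Naip6 promoter changed by 0.39 (SE 0.28, limma adjusted p = 0.367) and 0.61 (SE 0.36, limma adjusted p = 0.240). In these fits 8.14% of all regions were higher and 0.371% lower in fold enrichment, and 13.6% and 2.57% in pileup. The median change over all regions in these fits was 0.20 in fold enrichment and 0.26 in pileup. Over regions called in every library it was −0.09 and −0.10. For each member region that enters these fits without a call in replicate 3, the control value is that of replicate 1 alone.

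Nlrc4 encodes the adaptor that NAIPs recruit (chr17:74426295-74459108, minus strand). Its promoter region (chr17:74458976-74459405) had a fold enrichment of 8.33 and 5.69 in control LPMs and 15.5 and 10.6 in RXR-deficient LPMs. The genotypes did not overlap after centring, with a log2 change of 0.53 (SE 0.22, limma adjusted p = 0.191) that was 0.33 without control replicate 1. In pileup they overlapped (change 0.28, SE 0.33, limma adjusted p = 0.581). An intronic region 18.4 kb into the gene (chr17:74440503-74440924) had 5.05 in control replicate 1, no call in replicate 3, and 10.4 and 9.62 in RXR-deficient LPMs. In the fit with regions called in 3 libraries, its only control value was that of replicate 1. The region then changed by 1.09 in fold enrichment (SE 0.28) and by 0.93 in pileup (SE 0.36). The median change over all regions in these fits was 0.20 and 0.26. Another region of Nlrc4, 26.3 kb into the gene, was called only in both RXR-deficient libraries, with pileups of 13 and 12.

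Nlrp3 (chr11:59541569-59566955, plus strand) has 2 RefSeq starts, and each had its own promoter-TSS region. At the upstream start (chr11:59541275-59541846) the pileup was 97 and 21 in control LPMs and 53 and 51 in RXR-deficient LPMs, and the fold enrichment 7.49 and 4.91 against 5.45 and 5.49. Both control libraries lay above both RXR-deficient libraries after scaling, with changes of −0.52 in fold enrichment (SE 0.23, limma adjusted p = 0.202) and −0.65 in pileup (SE 0.25, limma adjusted p = 0.111). At the downstream start (chr11:59542313-59542867) the fold enrichment was 7.50 and 5.58 against 9.78 and 7.35, the pileup 98 and 23 against 95 and 70, and the genotypes overlapped (change 0.02, SE 0.23, limma adjusted p = 0.967). Neither start passed the threshold, and the difference between the 2 starts was not tested.

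The sequence before the upstream Nlrp3 start (RefSeq, GRCm38.p6, chr11:59541319-59541568, plus strand) is shown because this start had the lowest change among the promoters fitted in fold enrichment. Capitals mark an NF-kB match and a GATA match (AGATAA).
Nlrp3 upstream promoter: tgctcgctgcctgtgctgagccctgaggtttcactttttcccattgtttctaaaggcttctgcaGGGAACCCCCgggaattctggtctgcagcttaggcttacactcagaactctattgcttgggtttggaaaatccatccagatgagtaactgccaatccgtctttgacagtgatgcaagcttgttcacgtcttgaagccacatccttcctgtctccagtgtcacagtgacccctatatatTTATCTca
The other Nlrp3 regions that were called in every library, at 14.6 and 2.99 kb upstream and 11.9 kb downstream of the TSS, changed by 0.40, 0.36 and 0.25 in fold enrichment with limma adjusted p of 0.293, 0.360 and 0.495. The region with the highest mean fold enrichment of Nlrp3, 20.3 kb into the gene, was called in RXR-deficient replicate 1 alone (10.9, pileup 27), so that its rank rests on 1 library. The TSS nearest to this region was that of Olfr222. A region 16.2 kb upstream was called only in both RXR-deficient libraries, with pileups of 22 and 17.

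Aim2 (chr1:173420604-173466040, plus strand) had the most regions. Its promoter region (chr1:173420345-173420712) had a fold enrichment of 9.95 and 6.85 in control LPMs and 13.1 and 11.1 in RXR-deficient LPMs, with pileups of 79 and 19 against 79 and 62, and changed by 0.18 (SE 0.22, limma adjusted p = 0.655). The strongest region was intronic, 31.2 kb into the gene (chr1:173451542-173452067), at 15.3 and 8.25 against 17.8 and 15.8 (change 0.21, SE 0.21, limma adjusted p = 0.577). A region 1.45 kb upstream of the RefSeq start, which holds the start of a non-coding GENCODE transcript of Aim2, had the highest pileups of the gene, 103 and 26 against 83 and 71. The largest change in fold enrichment of the 19 tested regions was 8.46 kb upstream (chr1:173411894-173412389), where the fold enrichment was 8.50 and 4.85 against 14.0 and 12.3. The genotypes did not overlap there, and the change of 0.66 (SE 0.21, limma adjusted p = 0.105) did not pass the threshold.

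Casp1, which encodes caspase-1, and Casp4, which encodes caspase-11, are neighbours on chromosome 9. The only Casp1 region, at its promoter (chr9:5298098-5298821), had a fold enrichment of 6.73 in control replicate 1, no call in replicate 3, and 10.1 and 7.98 in RXR-deficient LPMs. The main Casp4 promoter region (chr9:5308595-5309027) had the widest spread between libraries of one genotype among the promoters, with 14.5 and 4.70 in control LPMs and 8.21 and 13.1 in RXR-deficient LPMs. The genotypes overlapped, with a change of −0.04 in fold enrichment (SE 0.31, limma adjusted p = 0.957) that turned positive without centring and with quantile normalization. In pileup, 69 and 10 against 22 and 34, the change was −0.81 (SE 0.37, limma adjusted p = 0.167), which passed without control replicate 3 (−1.43, limma adjusted p = 0.00499).

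The bases before the Casp4 start (RefSeq, GRCm38.p6, chr9:5308599-5308848, plus strand) are shown with NF-kB matches in capitals, because the gene is known to be induced by lipopolysaccharide.
Casp4 promoter: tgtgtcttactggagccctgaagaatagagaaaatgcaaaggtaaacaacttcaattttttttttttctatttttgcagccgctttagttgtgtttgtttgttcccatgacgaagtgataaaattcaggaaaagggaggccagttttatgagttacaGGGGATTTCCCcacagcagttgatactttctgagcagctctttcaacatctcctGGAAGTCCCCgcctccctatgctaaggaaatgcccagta
Another promoter-TSS region of Casp4, 701 bp upstream of the start, was called in control replicate 1 alone (3.94, pileup 18).

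Il1b encodes the precursor of the cytokine IL-1β (chr2:129364578-129371139, minus strand). At the sensitivity of these libraries it had no promoter-TSS region, and all 50-base windows of its promoter occur once in the genome (100%). Its strongest region lay 2.30 kb upstream of the TSS (chr2:129373122-129373751), in an intron of the antisense transcript Il1bos. The fold enrichment there was 16.8 and 10.0 in control LPMs and 18.1 and 18.4 in RXR-deficient LPMs, and the pileup was 110 and 29 against 104 and 107. The genotypes overlapped on both measures, with changes of 0.12 (SE 0.22, limma adjusted p = 0.767) and 0.04 (SE 0.27, limma adjusted p = 0.927).

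The 300 bases around the summit of this Il1b region (chr2:129373324-129373623, minus strand) are shown because it held matches to 4 of the 10 motifs, the most of any member window described. Capitals mark matches, on either strand, to PU.1 (GAGGAAGT), C/EBP (TTGCNNAA), AP-1 (TGANTCA) and KLF (CCACACCC).
Il1b upstream region: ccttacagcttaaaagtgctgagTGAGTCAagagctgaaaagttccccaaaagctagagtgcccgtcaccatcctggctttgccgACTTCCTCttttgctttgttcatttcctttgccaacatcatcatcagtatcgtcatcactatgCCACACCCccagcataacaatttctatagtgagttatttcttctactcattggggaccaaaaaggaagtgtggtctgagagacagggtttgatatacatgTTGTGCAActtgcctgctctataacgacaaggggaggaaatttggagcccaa
Farther upstream of Il1b, 3 of 5 regions were called only in both RXR-deficient libraries. Those 16.8, 22.6 and 39.4 kb upstream of the TSS had pileups of 24 and 20, 14 and 15, and 17 and 16. The region 37.5 kb upstream had 24 in control replicate 1, no call in replicate 3, and 51 and 23 in RXR-deficient LPMs, with a fold enrichment of 7.76 against 17.0 and 9.52.

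Regions called only in both libraries of one genotype were counted over all members. There were 6 of 50 for RXR-deficient LPMs, 3 at Il1b and 1 each at Nlrc4, Nlrp3 and Aim2, and 0 of 50 for control LPMs. Over all merged regions, 22.8% were called only in both RXR-deficient libraries and 0.0452% only in both control libraries. The pileups of the 6 regions lay between 9 and 24. With the same number of peaks taken from each library, the counts were 1 and 5 of 22 member regions, beside 7.82 and 7.22% of the 22300 merged regions.

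**Figure D4:**
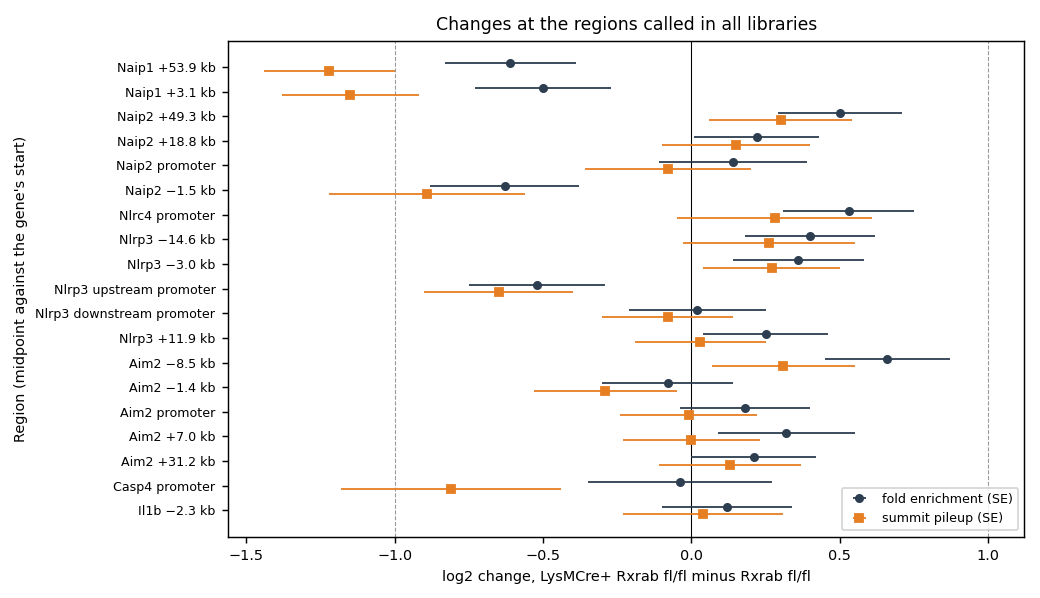
log2 change, RXR-deficient (LysMCre+ Rxrab fl/fl) minus control (Rxrab fl/fl), with its standard error (x axis), of the 19 member regions called in every library (y axis, gene with the distance of the midpoint from its start or, at a promoter-TSS region, the word promoter), for fold enrichment (circles) and summit pileup (squares); dashed lines mark the threshold of 1. Both Naip1 squares, at −1.22 and −1.15, lie past the threshold, while all circles lie between −0.63 and 0.66.

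After centring, the libraries of both genotypes did not overlap in fold enrichment at 13 of the 19 tested regions, 9 with RXR-deficient LPMs above and 4 with control LPMs above. Over all tested regions these orders held at 22.3 and 32.9%. In pileup the counts were 3 and 4 of 19, against 24.9 and 36.8%. The regions with control LPMs above in both measures were the 2 Naip1 regions, the upstream Naip2 region and the upstream Nlrp3 promoter.

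The motifs searched in the 300 bases around each summit, on both strands, occurred at the members as follows. C/EBP matches (TTGCNNAA) were found at 13 of 50 member regions and 15.4% of all merged regions, ISRE matches (GAAANNGAA) at 13 and 10.8%, GATA matches (AGATAA) at 10 and 10.6%, AP-1 matches (TGANTCA) at 10 and 15.4%, PU.1 matches (GAGGAAGT) at 6 and 10.5% and KLF matches (CCACACCC) at 4 and 4.49%. NF-kB matches were found at 4 of 50 and 8.38%, and CTCF matches at 1 of 50 and 4.23%. The DR1 and DR5 elements, the spaced repeats that RXR pairs bind, were found at 0 of 50 member regions each and at 0.122 and 0.0721% of all regions. With shares this low over all regions, a count of 0 in 50 cannot tell whether RXR binds at the members. At the promoter-TSS windows of the Naip genes, KLF and ISRE matches were found at Naip2 and Naip6, a GATA match at Naip1 and none at Naip5.

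The region pattern most like that of the intronic Naip1 region, by the distance between centred log2 fold enrichments over the 4 libraries, was sought among 10095 genes, each represented by one region. The nearest were Dph1, Fbxl18 and Rps6kc1, at distances of 0.14, 0.18 and 0.19. The levels in control replicates 1 and 3 and RXR-deficient replicates 1 and 2 were −0.38, −0.18, −0.55 and −1.01 at Naip1 and −0.34, −0.28, −0.59 and −0.94 at Dph1.

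Other genes of the pathway were described over a list of 48, which holds the adaptor Pycard, the gasdermin gene Gsdmd, interleukin genes and regulators. Of these, 43 were in the annotation and 42 had a region, giving 218 regions, of which 44 were called in every library. In fold enrichment limma called 0 of the 44 higher and 0 lower in RXR-deficient LPMs, with 13 at an unadjusted p under 0.05, against 22% of all tested regions. In pileup 2 were higher and 0 lower, beside 2.25% and 4.54% of all tested regions, with 17 at an unadjusted p under 0.05, against 32.5%. One was the promoter of Casp8, an initiator caspase, with pileups of 41 and 9 in control LPMs and 76 and 79 in RXR-deficient LPMs (change 1.10, SE 0.27, limma adjusted p = 0.0365). The other, with its midpoint at −5047 bp from the TSS of Gsdmd, which encodes the pore-forming gasdermin D, had pileups of 132 and 20 against 218 and 181 (change 1.08, SE 0.25, limma adjusted p = 0.0329). Of the 218 regions, 48 (22%) were called only in both RXR-deficient libraries, beside 22.8% of all regions.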

How the data were processed

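ATAC-seq of sorted LPMs was deposited as a peak list per library. According to the study's methods, adaptors were trimmed and read pairs were mapped to mm10 by Bowtie2. The authors then discarded duplicates, poorly mapped reads and those of the mitochondrial and sex chromosomes, and MACS2 2.1.1 called peaks library by library. The submitters' processing notes also name cutadapt 1.7, SAMtools 0.1.18, bedtools 2.24.0, DiffBind 2.6.6, edgeR 3.20.9 and HOMER 4.10.3. Each deposited list gives the fold enrichment of a summit, a ratio to the local background. The −log10 p value, the −log10 q value and the summit position were deposited with it. The whole-number pileup at each summit was found as the one that gives both deposited values, and 4997 of 4997 simulated peaks were recovered. The simulated backgrounds followed the same rule, a scaled whole count, that the search uses to choose between candidate pileups. Backgrounds off this rule were not simulated. Read counts are not used here, so the authors' edgeR test was left out.

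Regions were placed on the curated RefSeq transcripts of GRCm38.p6, which has the coordinates of mm10. Regions called in all 4 libraries were tested with limma 3.58.1 (R 4.3.3), on the log2 fold enrichment minus its library median and on the log2 of pileup plus 1, centred likewise, with Benjamini-Hochberg adjustment over all regions. On data simulated for the 15199 regions, limma called 146 of 200 regions changed by 2 on the log2 scale in the right direction, and 5 unchanged regions. Smaller changes were not simulated, while the observed changes in fold enrichment lay between −1.78 and 1.48 over all tested regions. A two-sided exact permutation test of 2 against 2 libraries cannot go below p = 0.333, so none was used. Identity is that of a global alignment (Biopython 1.88), over aligned positions. Uniqueness counts exact 50-base windows on the chromosomes, and a mate can place a read end that is not unique. The rule for regions named was all promoter-TSS regions, the region of each gene with the highest mean log2 fold enrichment over the libraries with a call, and any region past the threshold on either measure. The other regions given were chosen after their values were seen. Genes of the pathway list are named only where a region passed. The members and lists were chosen with earlier results of these data known.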

Additional observations from a re-analysis of the deposited data

How the results depend on the processing

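No paired analysis was possible because the labels record no pairing of libraries between the groups. The low signal of control replicate 3 over open regions and the 2 libraries per genotype limit what can be seen. Over all regions, limma on fold enrichment called 6 higher and 7 lower in RXR-deficient LPMs. These counts were 2719 and 124 with regions called in at least 3 libraries and 61 and 76 with a mean-variance trend. They were 0 and 0 without centring, 342 and 690 on the pileup, and 9 and 2 with quantile normalization. Leaving out each library gave 3 to 735 higher and 9 to 540 lower.

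Of the member regions, 0 were higher and 0 lower, and 1 was higher (an Nlrc4 intron) with regions called in at least 3 libraries. The alternatives on the pileup over such regions and without each library were chosen after seeing the data. The pileup gave 2 lower, both at Naip1, and over regions called in at least 3 libraries 1 higher (Naip5) and 2 lower. Without each library the pileup gave 0 to 3 lower: 3 without control replicate 1 (Naip2 added, −1.17), 3 without control replicate 3 (Casp4 added, −1.43), and 0 without either RXR-deficient library. The members called only in both RXR-deficient libraries, 6, became 1 with the same number of peaks per library and 1 within gene bodies only, and 6 to 17 without each library in turn. Those called only in both control libraries, 0, became 5 with equal peak numbers (1 and 5 of 22, beside 7.82 and 7.22% of all regions) and 0 to 2 without each library.

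Among the named regions called in every library, no log2 change in fold enrichment passed the threshold under any setting. On the pileup the Naip2, downstream Nlrp3 and Aim2 promoters turned to −0.08, −0.08 and −0.01, and Casp4 turned to 0.33 without centring and 0.14 with quantile normalization. Leaving out each library, with fold enrichment, the intronic Naip1 region ranged from −0.27 to −0.74, the Nlrc4 promoter from 0.33 to 0.64, the upstream Nlrp3 promoter from −0.35 to −0.69, the strongest Naip2 region from −0.27 to 0.37, the Naip2 promoter from −0.21 to 0.22, the downstream Nlrp3 promoter from −0.24 to 0.06, the Aim2 promoter from −0.03 to 0.23, the intronic Aim2 region from −0.10 to 0.29, Casp4 from −0.71 to 0.46 and Il1b from −0.11 to 0.30. The Naip1 region past the 3′ end ranged from −0.50 to −0.78 in the same way. The cause of these changes was not tested.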
